A study of Mus musculus with 4 samples.

Results

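A set of 10 genes of antigen presentation by the major histocompatibility complex (MHC) were followed in mouse brain after permanent middle cerebral artery occlusion (PMCAO). Their names were matched to the gene names of the array probes, which gave 10 of 27670 gene names and 20 of 41174 probes. The 5 class I members were B2m, H2-D1, H2-K1, H2-T23 and Tapbp. The 5 class II members were H2-Aa, H2-Ab1, H2-Eb1, Cd74 and Ciita.

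The study measured RNA on 4 two-colour oligonucleotide arrays, each pairing PMCAO RNA with sham RNA of the same time. The groups were PMCAO at 6 h, sham at 6 h, PMCAO at 24 h and sham at 24 h, with 2 arrays per time in opposite dye orientation (PMCAO in Cy5 on sample 1 and in Cy3 on sample 2). Mice were C57BL/6J males of 8 to 12 weeks. In PMCAO mice a nylon filament was placed in the right middle cerebral artery through the carotid, and in sham mice the carotid was exposed and the wound closed. Both received saline into a brain ventricle, and 3 mice made up a group. The study text names the contralateral (left) hemisphere as the tissue on the arrays, while the sample labels say only brain. Neither says how the RNA of 3 mice was combined, nor whether samples 1 and 2 are separate RNA or the same RNA with dyes exchanged, so the p-values measure the spread between arrays, which may be technical.

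Class I molecules present peptides from inside the cell to CD8+ T cells and consist of a heavy chain (H2-K1, H2-D1) with the light chain beta-2 microglobulin (B2m). Class II molecules pair an alpha chain with a beta chain, travel with the invariant chain Cd74 and present peptides from taken-up material to CD4+ T cells. Most nucleated cells can make class I, whereas class II is largely kept to professional antigen-presenting cells and is switched on through the transactivator Ciita. In healthy brain both are known to be low in neurons, and interferons are known inducers of both.

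The promoters are shown with matches to motifs of known control elements of MHC genes. Windows of 200 bases before the start were searched for 7 members and are printed for 6, as RefSeq sequence of build GRCm38.p6. Tapbp, whose window held a CCAAT box and no other motif, is not printed, and Cd74, H2-Ab1 and Ciita were not analysed for motifs here. H2-K1 is at chr17:34000348-34000547 on the minus strand, H2-D1 at chr17:35262894-35263093 on the plus strand and H2-T23 at chr17:36032702-36032901 on the minus strand. B2m is at chr2:122147487-122147686 on the plus strand, H2-Aa at chr17:34287824-34288023 on the minus strand and H2-Eb1 at chr17:34305667-34305866 on the plus strand. Capitals mark matches on either strand to 4 motifs: the kappa B consensus, the interferon response element core (GAAA, any 2 bases, GAAA), the CCAAT box, and the X box (AG, any 2 bases, AC, any 2 bases, ATG).
H2-K1: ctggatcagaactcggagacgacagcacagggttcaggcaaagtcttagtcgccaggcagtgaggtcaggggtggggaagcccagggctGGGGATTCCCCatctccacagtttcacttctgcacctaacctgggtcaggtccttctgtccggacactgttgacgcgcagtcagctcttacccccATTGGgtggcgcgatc
H2-D1: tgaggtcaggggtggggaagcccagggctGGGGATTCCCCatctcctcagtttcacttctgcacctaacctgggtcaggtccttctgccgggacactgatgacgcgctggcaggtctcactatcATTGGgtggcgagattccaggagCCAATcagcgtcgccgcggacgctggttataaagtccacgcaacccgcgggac
H2-T23: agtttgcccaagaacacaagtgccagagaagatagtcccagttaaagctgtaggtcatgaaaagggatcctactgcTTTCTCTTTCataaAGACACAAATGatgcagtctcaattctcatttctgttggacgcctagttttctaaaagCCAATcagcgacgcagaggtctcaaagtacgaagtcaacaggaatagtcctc
B2m: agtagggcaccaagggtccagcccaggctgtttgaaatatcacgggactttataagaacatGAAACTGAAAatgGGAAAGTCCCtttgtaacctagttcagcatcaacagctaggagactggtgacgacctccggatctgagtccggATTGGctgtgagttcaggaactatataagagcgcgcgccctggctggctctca
H2-Aa: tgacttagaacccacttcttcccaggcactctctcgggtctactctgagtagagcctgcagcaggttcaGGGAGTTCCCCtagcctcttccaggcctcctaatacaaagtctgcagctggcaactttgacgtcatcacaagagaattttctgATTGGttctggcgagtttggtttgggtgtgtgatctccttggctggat
H2-Eb1: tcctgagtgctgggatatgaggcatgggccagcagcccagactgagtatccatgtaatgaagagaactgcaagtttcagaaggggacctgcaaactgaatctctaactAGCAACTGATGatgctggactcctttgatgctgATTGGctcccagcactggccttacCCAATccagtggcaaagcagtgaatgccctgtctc

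The kappa B consensus, the site of NF-kappa B, stood in H2-K1, H2-D1, B2m and H2-Aa and in 6.07% of all 32851 promoter windows of this length. The interferon response element core stood in H2-T23 and B2m, against 2.27% of all windows. The X box, the site of the RFX complex that acts with Ciita, stood in H2-Eb1 and also in the class I gene H2-T23, against 1.98% of all windows. The CCAAT box, the site of NF-Y, stood in all 7 searched windows and in 29.3% of all windows. Only matches to these patterns were searched, so a window without a match may still hold such an element in another form. Matches to different motifs did not overlap in these 6 windows. RefSeq lists 2 starts for H2-K1, of which the first in its table is printed.

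At 24 h the heavy chains of class I were higher in PMCAO brain, by 1.70-fold to 2.00-fold, while of class II only the invariant chain Cd74 passed the test, at 1.28-fold. H2-K1, H2-D1 and H2-T23 rose, and B2m and Tapbp were above 0 on both arrays without passing. H2-Aa, H2-Ab1 and H2-Eb1, the chains of the class II molecule itself, did not pass. The test was limma's moderated test on log2 ratios, with Benjamini-Hochberg adjustment over the 19122 genes tested and a threshold of 0.05. In all, 9 members entered it, and Ciita stayed out because its probe was not well above background on both arrays of any group. Of these, 4 of 9 members were called higher and 0 lower, where 7.86% of all genes tested were called higher and 4.53% lower (12.4% in either direction). With median centring in place of loess none of the 4 calls held, and 13 of all genes tested were called higher.

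By class, 3 of 5 class I members and 1 of 4 tested class II members were called higher at 24 h. The median log2 ratio was 0.77 for class I, 0.22 for class II and 0.0008 for all genes tested. Class II probes were dimmer, with mean log2 intensities of 7.04 to 9.18, against 11.25 to 12.80 for class I. The offset of 50 added to the signal understates changes of dim probes, so class and brightness cannot be told apart here. With the scanner's processed signals the medians were 0.78 for class I and 0.28 for class II. On the single 24 h arrays the class I median was 0.58 on sample 1 and 0.84 on sample 2, against 0.15 and 0.24 for class II. The members' ranges overlapped between classes on both arrays. These are descriptions of lists chosen with results of these data known, and no test of class against class was made.

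**Figure D1:**
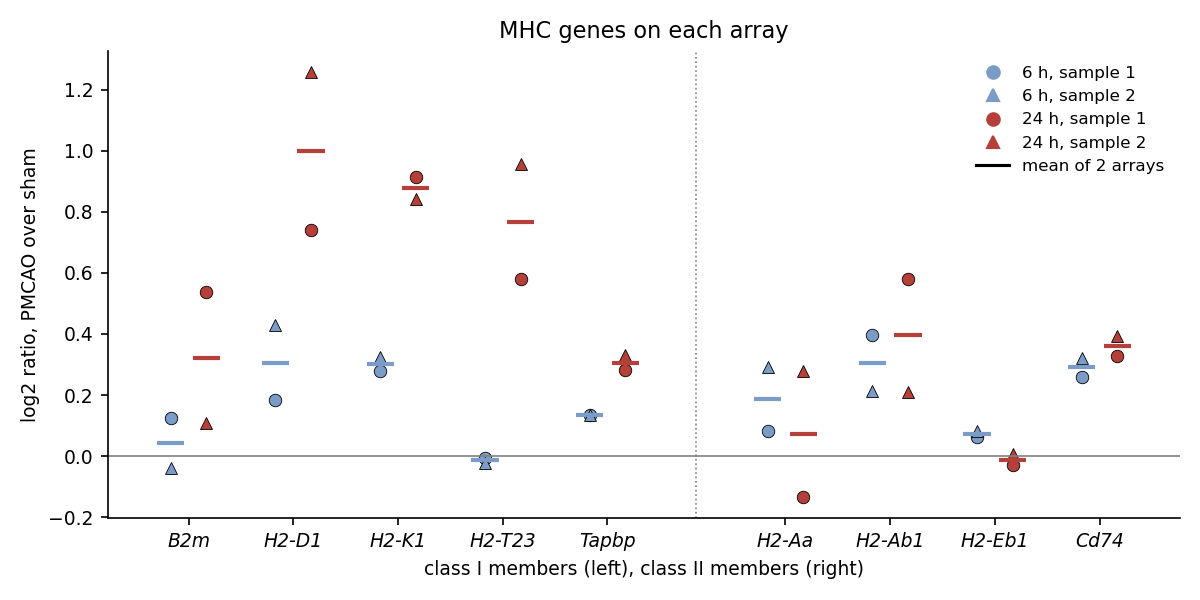
Log2 ratio of PMCAO over sham (vertical axis) for the 9 tested members, class I left and class II right of the dotted line; circles are sample 1, triangles sample 2, bars the mean of 2 arrays, blue 6 h and red 24 h. At 24 h H2-D1, H2-K1 and H2-T23 lie between 0.58 and 1.26 on every array, and class II points reach at most 0.58.

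H2-K1 encodes the K heavy chain, one of the classical class I molecules of this strain. Its normalized log2 signal at 24 h was 13.31 and 13.35 in PMCAO, against 12.40 and 12.51 in sham. At 6 h it was 12.38 and 12.37 in PMCAO, against 12.11 and 12.04 in sham. PMCAO lay above sham on every array, and the groups did not overlap at either time. With 2 values per group, here and below, groups can fail to overlap without any change. The log2 ratio at 24 h was 0.88 ± 0.08 (model SE, 2 arrays, limma adjusted p = 0.00314), or 1.84-fold.

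H2-D1, the D heavy chain, had log2 signals of 12.37 and 12.58 in PMCAO at 24 h, against 11.63 and 11.32 in sham. Its ratios were 0.74 on sample 1 and 1.26 on sample 2, so the size differed between arrays while the groups stayed apart. The mean was 1.00 ± 0.15 (limma adjusted p = 0.0133), the largest of the 9 members. At 6 h H2-D1 had 11.44 and 11.46 in PMCAO, against 11.26 and 11.03 in sham.

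H2-T23 encodes the non-classical molecule Qa-1, a ligand of the CD94/NKG2 receptors of natural killer cells. Its log2 signals at 24 h were 13.22 and 13.40 in PMCAO, against 12.64 and 12.44 in sham. At 6 h they were 12.67 and 12.69 in PMCAO, against 12.67 and 12.71 in sham, so the groups overlapped at 6 h and stood apart at 24 h. The 24 h ratio was 0.77 ± 0.11 (limma adjusted p = 0.0136). The H2-T23 probe shares 50 of its 60 bases with the probe of H2-Q7, so signal from related class I genes cannot be told apart from its own.

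B2m, the light chain common to class I molecules, had log2 signals of 12.86 and 12.73 in PMCAO at 24 h, against 12.32 and 12.62 in sham. The groups did not overlap, but the ratio was 0.54 on sample 1 and 0.11 on sample 2. The mean of 0.32 ± 0.13 did not pass (limma adjusted p = 0.165). At 6 h its ratio was 0.04 ± 0.13, with opposite signs on the 2 arrays.

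Tapbp encodes tapasin, which holds empty class I molecules at the peptide transporter. Its log2 signals were 11.68 and 11.57 in PMCAO at 24 h, against 11.39 and 11.24 in sham. Both ratios were small and close to each other, at 0.28 and 0.33. Their mean of 0.31 ± 0.08 missed the threshold (limma adjusted p = 0.0667).

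Cd74, the invariant chain that escorts class II molecules, had log2 signals of 8.78 and 8.74 in PMCAO at 24 h, against 8.45 and 8.34 in sham. At 6 h it had 9.01 and 9.04 in PMCAO, against 8.75 and 8.71 in sham. PMCAO was above sham on all 4 arrays by a similar amount. The 24 h ratio of 0.36 ± 0.08 passed narrowly (limma adjusted p = 0.0462), and the 6 h ratio of 0.29 ± 0.08 did not (limma adjusted p = 0.317). The 24 h call held in 4 of 13 alternatives, over which the ratio ranged from 0.30 to 0.40.

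H2-Ab1, the beta chain of the A molecule, had log2 signals of 9.39 and 9.23 in PMCAO at 24 h, against 8.81 and 9.02 in sham. The groups did not overlap, and the ratio of 0.40 ± 0.12 did not pass (limma adjusted p = 0.0937). H2-Aa, its alpha chain partner, had 6.91 and 7.09 in PMCAO at 24 h, against 7.04 and 6.82 in sham. Those groups overlapped, and the ratio was 0.07 ± 0.13 (limma adjusted p = 0.763).

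H2-Eb1, the beta chain of the E molecule, had log2 signals of 7.59 and 7.56 in PMCAO at 24 h, against 7.63 and 7.55 in sham. Its ratio was -0.01 ± 0.08 (limma adjusted p = 0.943). Ciita, the class II transactivator, was well above background in 1 of 4 PMCAO channels and in 0 of 4 sham channels. H2-Ea, the alpha chain of the E molecule, which C57BL/6 mice are known not to express, was above background in 0 of 4 PMCAO and 0 of 4 sham channels.

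**Figure D2:**
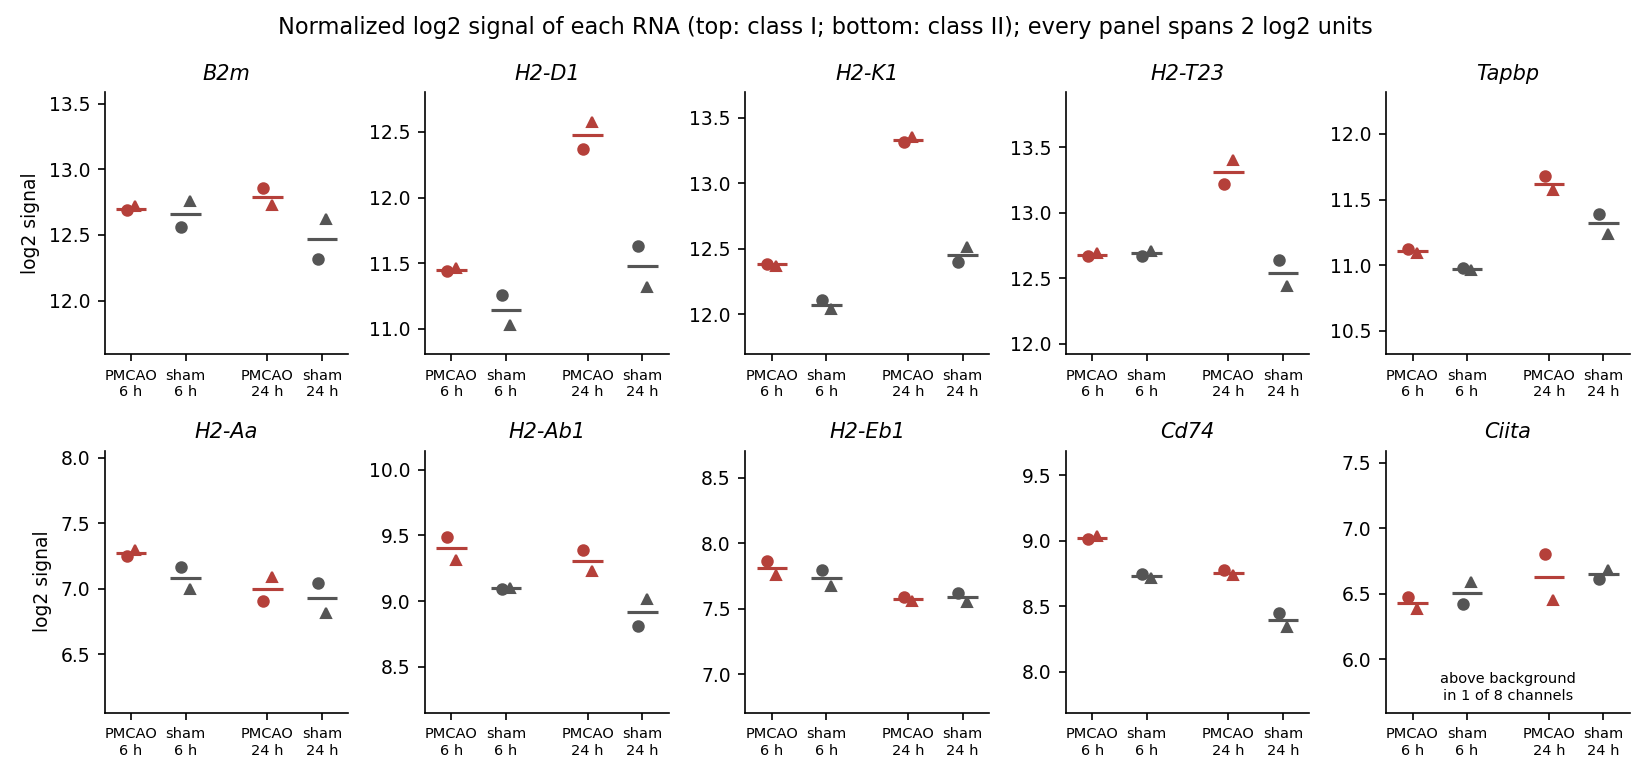
Normalized log2 signal (vertical axis, each panel spanning 2 log2 units around its own centre) of the 10 members in PMCAO (red) left of sham (grey) at 6 h and 24 h; circles are sample 1, triangles sample 2, bars means. PMCAO stands clear of sham at 24 h for H2-D1, H2-K1 and H2-T23, and Ciita was above background in 1 of 8 channels.

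At 6 h no member passed the test. Of the 9 members, 0 were called higher and 0 lower by limma, where 0.816% of all genes tested were called higher and 0.0366% lower (0.852% in either direction). At an unadjusted p under 0.05, 1 class I member and 2 class II members were higher, where 1179 of all 19122 genes tested were higher and 495 lower. The class I median was 0.13 and the class II median 0.24, or 0.11 and 0.35 with the scanner's processed signals. The largest 6 h ratios were those of H2-D1 (0.31 ± 0.15), H2-Ab1 (0.31 ± 0.12), H2-K1 (0.30 ± 0.08) and Cd74 (0.29 ± 0.08). With the 6 h arrays fitted alone, 2 class I and 2 class II members passed, and all genes called higher numbered 935 in place of 156.

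The difference between times was tested within the same fit. It was called for 0 of 9 members by limma, where 1.30% of genes were called with a higher ratio at 24 h and 0.303% with a lower one (1.61% in either direction). In all, 3 class I members and 0 class II members passed at an unadjusted p under 0.05. At that threshold 1468 of all 19122 genes tested had a higher ratio at 24 h and 1245 a lower one. H2-T23 had a difference of 0.78 ± 0.16 (limma adjusted p = 0.0943), H2-D1 of 0.69 ± 0.21 (limma adjusted p = 0.207) and H2-K1 of 0.58 ± 0.11 (limma adjusted p = 0.0902). The class I median difference was 0.58 and the class II median -0.01. Without sample 1 of 24 h, H2-D1, H2-K1 and H2-T23 passed, and without sample 2, B2m, H2-K1 and H2-T23 did. In those fits the spread comes from the 6 h arrays alone and the single 24 h array is assumed to vary like them, and all genes called with a higher ratio numbered 1561 and 1272, against 249.

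Sham RNA itself moved between times for some members. In a model of the separate channels, sham at 24 h over sham at 6 h was higher for H2-K1 (0.38 ± 0.08, limma adjusted p = 0.0361) and lower for Cd74 (-0.34 ± 0.07, limma adjusted p = 0.0450). These were 1 of 9 members called higher and 1 called lower, where 2.60% of genes were called higher and 1.67% lower (4.27% in either direction). Tapbp (0.35) and H2-D1 (0.33) were also above 0, while the 4 class II members and B2m and H2-T23 were below 0. Without either 6 h array neither call passed, with adjusted p from 0.266 to 0.382 for H2-K1 and near 0.37 for Cd74. Without sample 2 of 24 h neither passed (0.0747 for H2-K1 and 0.0915 for Cd74), and over the mean of all its probes the H2-K1 value was 0.16.

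In all, 6 members had more than 1 probe. The other H2-K1 probes gave 24 h ratios of 0.81 and 0.95, against 0.88 for the brightest, but differed more between arrays, at 0.37 and 1.25 for one and 0.61 and 1.29 for the other. Those side probes share 46 and 40 of 60 bases with probes of H2-Bl and H2-Q10. The other H2-Ab1 probes gave 0.36, 0.22 and 0.01, and those of B2m gave 0.29 and 0.14. H2-D1 had a probe that the array design describes as a thymus-leukaemia antigen RNA, which was above background in 0 of 8 channels. The second probes of Tapbp and H2-Aa gave 0.15 and 0.05.

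**Figure D3:**
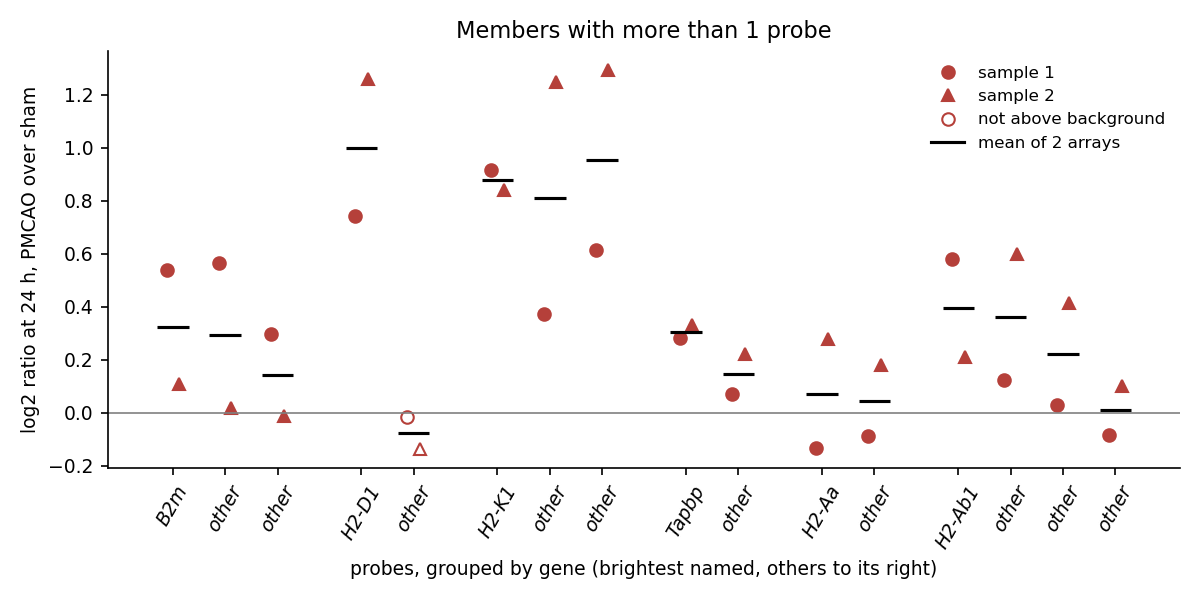
Log2 ratio of PMCAO over sham at 24 h (vertical axis) for every probe of the 6 members with more than 1 probe, the brightest named and the others to its right; circles are sample 1, triangles sample 2, bars means, open symbols a probe not above background. All 3 H2-K1 probes have means between 0.81 and 0.95, and the order of the arrays differs between them.

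Other genes of the class I pathway were higher at 24 h as well. Of 37 listed genes, 26 were tested, and 11 were called higher and 0 lower, with a median of 0.32, where 7.86% of all genes were called higher and 4.53% lower. Of the 11, 7 were related heavy chain genes, among them H2-Q7 (0.93), H2-Q2 (0.90) and H2-Q1 (0.88), whose near-identical sequences leave their probe signals uncertain. The other 4 were Irf1 (0.85 ± 0.09, limma adjusted p = 0.00399), a transcription factor induced by interferon, the lipid-presenting Cd1d1 (0.66), the immunoproteasome subunit Psmb8 (0.55) and the peptide transporter subunit Tap1 (0.56). Tap1 was named after its values were seen. At 6 h 0 of the 26 were called by limma in either direction. At an unadjusted p under 0.05, 1 lay above 0 and 1 below (all genes: 1179 above and 495 below of 19122).

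In the class II pathway 21 of 24 listed genes were tested, and 4 were called higher and 1 lower at 24 h, with a median of 0.13 (all genes: 7.86% higher, 4.53% lower). Cd86, a costimulatory ligand of T cells, was at 1.48 ± 0.11 (limma adjusted p = 0.00123), with array ratios of 1.60 and 1.36. The lysosomal protease Ctsl (0.90), the lysosomal thiol reductase Ifi30 (0.77) and the surface protein Cd83 (0.54) were the others called higher. Marchf1, a ubiquitin ligase that removes class II and Cd86 from the cell surface, fell by 0.45 on the log2 scale (limma adjusted p = 0.0290), a call that held in 7 of 13 alternatives. Genes of like role in the list did not pass: Cd80 (0.36) and Cd40 (0.21) beside Cd86, Ctss (0.13) and Lgmn (0.27) beside Ctsl, and Marchf8 (0.0051) beside Marchf1. The peptide-loading gene H2-DMa (-0.04) and the RFX subunit Rfx5 (0.02), both named for their roles, did not pass.

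Interferon gamma, a known inducer of both classes, was itself not tested, since Ifng was above background in 0 of 8 PMCAO and 1 of 8 sham channel readings over 2 probes. Of 16 genes of its signalling and response, 14 were tested and 6 were called higher at 24 h, with 0 lower and a median of 0.37 (all genes: 7.86% higher, 4.53% lower). Cxcl10, a chemokine that draws T cells, was at 2.97 ± 0.17 (limma adjusted p = 0.000694). The GTPases Gbp2 (1.13), Irgm1 (0.93), Igtp (0.60) and Iigp1 (0.53) and the signalling inhibitor Socs1 (0.37) were the others. The Socs1 call held in 4 of 13 alternatives. At 6 h 0 of the 14 were called by limma, and 2 were higher at an unadjusted p under 0.05 (all genes: 1179 of 19122).

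In limma's test the ratio differed between times for 0 of the 26 class I pathway genes. It did for 1 of the 21 class II pathway genes (Cd86, by 1.11) and 1 of the 14 interferon gamma genes (Cxcl10, by 2.31). Of all genes, 1.30% were called with a higher ratio at 24 h and 0.303% with a lower one. At an unadjusted p under 0.05, 11 of the 26, 3 of the 21 and 7 of the 14 had a higher ratio at 24 h. At that threshold 0, 1 and 0 had a lower one. Of all 19122 genes tested, 1468 had a higher ratio and 1245 a lower one. In sham at 24 h over sham at 6 h, H2-Q1 (0.34) and Gbp3 (0.33) were the 2 genes of these lists that were called, both higher, where 2.60% of all genes were called higher. Both calls were lost with the replicate block, under which 0 genes were called higher.

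**Figure D4:**
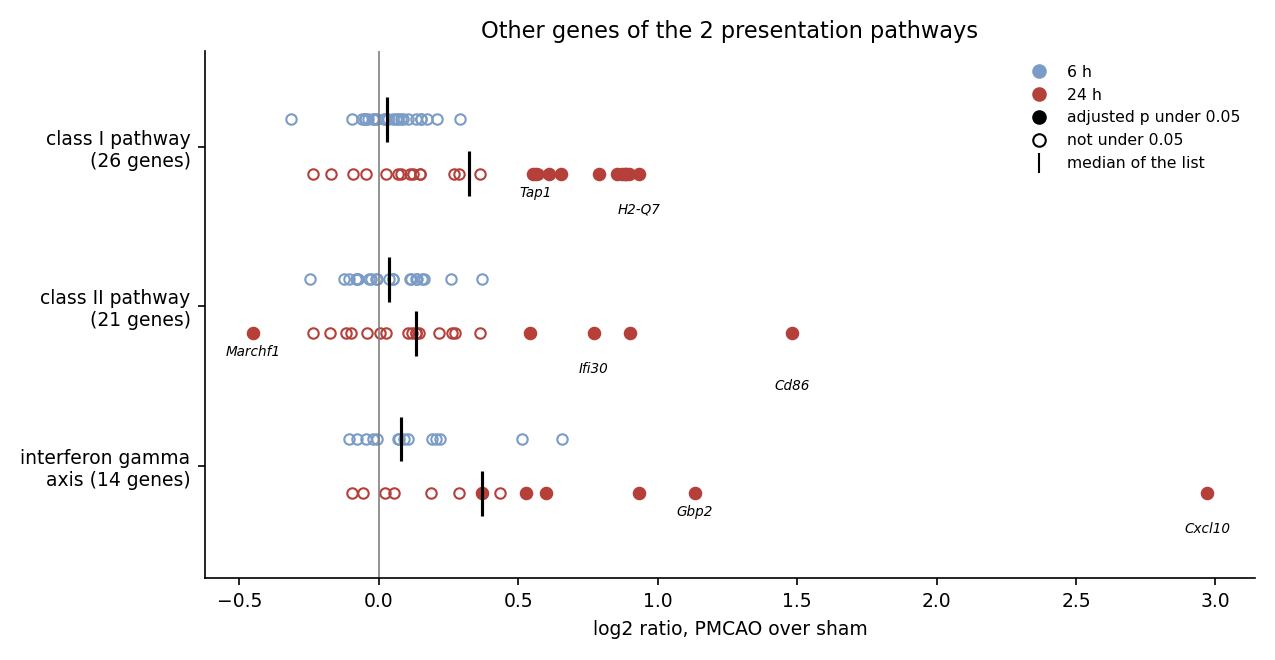
Log2 ratio of PMCAO over sham (horizontal axis) for each tested gene of the class I pathway, the class II pathway and the interferon gamma list, blue 6 h and red 24 h, filled where the adjusted p is under 0.05; black bars are medians. At 24 h 11 of 26, 5 of 21 and 6 of 14 genes are filled, and Cxcl10 is the farthest right at 2.97.

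Markers of other cells moved at the same times, and in whole tissue a change in the number of cells of a type and a change in RNA per cell cannot be told apart. Of all genes tested, 0.816% were called higher and 0.0366% lower at 6 h, and 7.86% higher and 4.53% lower at 24 h. Of 8 tested monocyte and neutrophil markers, 3 were higher at 6 h and 7 at 24 h, led by S100a9 (5.84) and S100a8 (5.27). Their summed signal at 24 h was 66790 to 79060 in PMCAO, against 1860 to 2068 in sham. Ccr2, the receptor that defines inflammatory monocytes and is named for that role, was at 0.42, and Ly6c2, Ly6g and Camp were not tested. Of 7 border macrophage markers, cells known to carry class II at the brain surface, 4 were higher at 24 h, among them Lyve1 (1.11) and F13a1 (1.04), with sums of 5370 to 6223 in PMCAO and 3026 to 3315 in sham.

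Endothelial cells are known to be a main site of class I in brain. Of their 6 markers, 2 were higher and 1 lower at 24 h (all genes: 7.86% higher, 4.53% lower). Cdh5 was at 1.45 and Pecam1 at 0.93. Slco1a4, an organic anion transporter of the blood-brain barrier, was lower at both times, at -1.03 at 6 h and -0.62 at 24 h. Over the list, the summed signal was 60100 to 61240 in PMCAO, against 39830 to 41030 in sham. Of 9 microglia markers 0 were higher and 4 lower at 24 h, led by P2ry12 (-1.72) and Gpr34 (-1.37), with sums of 30130 to 32700 in PMCAO and 35700 to 38400 in sham. The part of these cell types in the MHC values was not tested.

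Sham markers also differed between times. In sham at 24 h over sham at 6 h, 3 of 9 microglia markers were higher, among them Aif1 (0.38) and Csf1r (0.31). Called lower were S100a8 (-1.15, 1 of 8 monocyte and neutrophil markers) and Cd163 (-0.38, 1 of 7 border macrophage markers). The choroid plexus marker Ttr (-0.52, 1 of 4) was also lower. Of all genes tested, 2.60% were called higher and 1.67% lower. With the sample number as a replicate block, 0 genes were called higher in sham and 2 lower. The calls of higher sham signal named here and above were thus lost. With only 2 genes called lower, the lower calls of S100a8, Cd163 and Ttr cannot all have held either. The shifts of these sham markers stand beside those of H2-K1 and Cd74, and their part in them was not tested.

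For the dendritic cells and B cells, which carry most class II in lymphoid tissue, markers were sparse. Of 10 dendritic cell markers 8 were tested, and 3 were higher and 1 lower at 24 h (all genes: 7.86% higher, 4.53% lower). Of the 3, Ccr7 passed the filter through PMCAO RNA alone (above background in 2 of 4 PMCAO and 0 of 4 sham channels). The summed signals were 2341 to 2491 in PMCAO and 2263 to 2452 in sham. Itgax was at 0.58 and ranged from 0.47 to 1.37 over 12 alternatives. Over its 2 probes it was above background in 2 of 8 PMCAO and 3 of 8 sham channel readings. Siglech, which microglia also express, was at -1.01. Cd209a and Clec9a were above background in no channel. Of 6 B cell markers 3 were tested and 0 called by limma, with Cd79a and Blk above background in no channel. With p unadjusted at 0.05, 1 lay above 0 and 1 below (all genes: 2966 above and 2540 below of 19122). Of 9 T and natural killer cell markers 5 were tested and 0 called (0 at an unadjusted p under 0.05 at 24 h), and Cd8a was above background in no channel.

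Markers of the brain's own cells were also listed, and they cannot tell which hemisphere was used. All listed neuron, astrocyte, oligodendrocyte and choroid plexus markers passed the filter on dim probes. Neuron, oligodendrocyte and choroid plexus markers gave 0 calls by limma at 24 h among 5, 5 and 4 genes, with 0, 0 and 1 at an unadjusted p under 0.05. At that threshold 2966 of all 19122 genes tested were higher and 2540 lower. Of 5 astrocyte markers 1 was called higher, Aldh1l1 (0.54), where 7.86% of all genes were called higher and 4.53% lower. The others lay below 0 without passing: Slc1a2 (-0.41), Aqp4 (-0.22), Gja1 (-0.05) and Slc1a3 (-0.01). Summed neuron signal at 24 h was 141400 to 147200 in PMCAO, against 156100 to 163800 in sham.

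**Figure D5:**
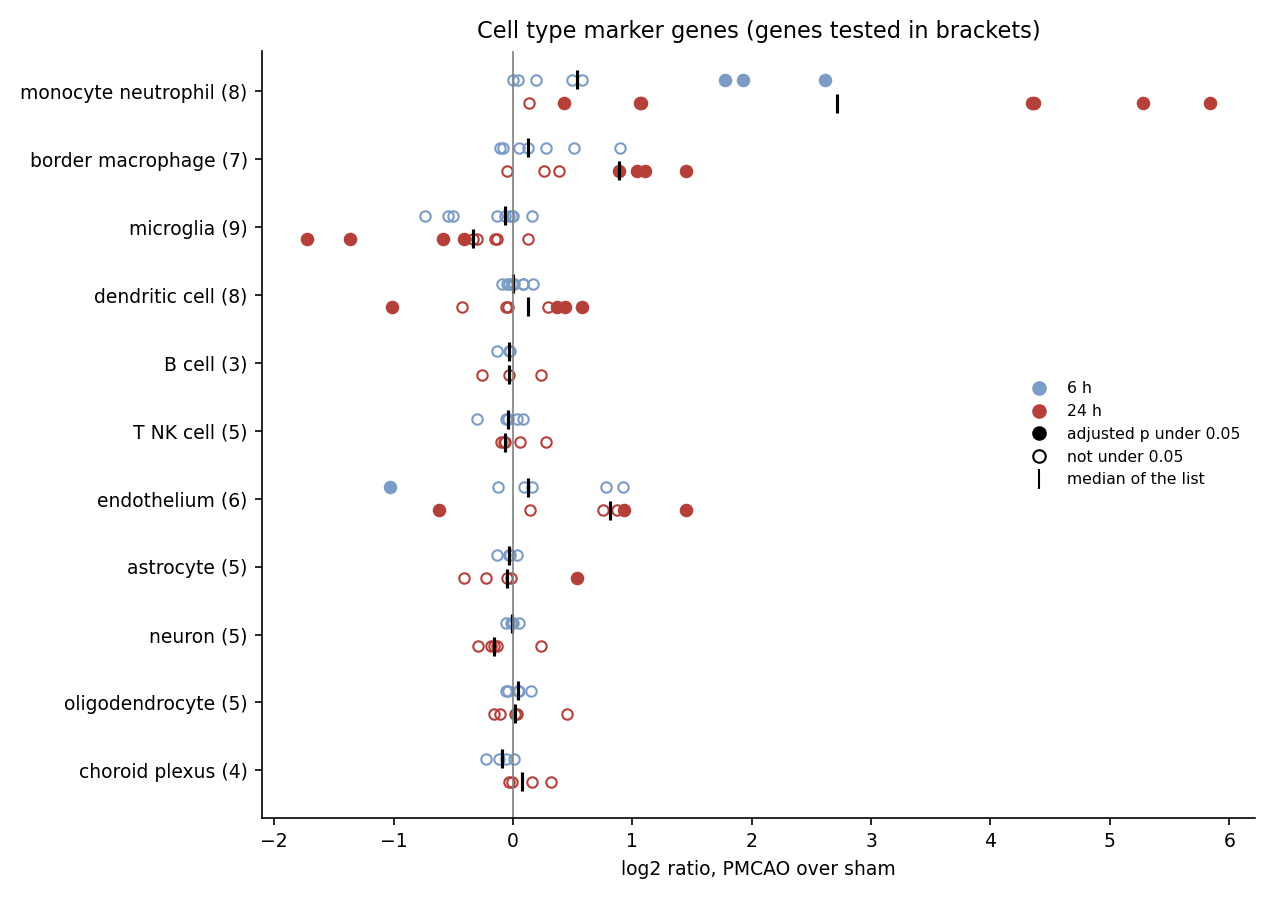
Log2 ratio of PMCAO over sham (horizontal axis) for each tested marker gene of 11 cell types, blue 6 h and red 24 h, filled where the adjusted p is under 0.05; black bars are medians and the bracket gives the genes tested. Monocyte and neutrophil markers reach 5.84 at 24 h, while microglia markers extend to -1.72.

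The genes whose 4 array ratios lay closest to those of Cd74 were Ccdc86, Tmem198b, Actr5, BE570772 and Pym1, with root mean square differences of 0.03 to 0.05. This likeness rests on 4 arrays.

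Across the series, 65.5% to 73.1% of probes were above background in the PMCAO channel and 66.7% to 72.9% in the sham channel. The ratios of the 2 arrays of a time correlated at 0.58 at 6 h and 0.67 at 24 h over all genes, and 112 to 142 spots per array carried an outlier flag. The number of arrays limits the precision of every value.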

How the data were processed

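The arrays measured RNA of PMCAO and sham mouse brain at 6 h and 24 h. The scanner files hold intensity values in both colours that the authors obtained by Agilent Feature Extraction (version 9.5.3.1 in the submitters' processing notes); the series table holds the authors' deposited values of the same arrays, taken as a score. Its size equals the linear ratio of the deposited processed Cy5 over Cy3 signals for 100% of values. The tolerance was 0.01, or 0.01 times the ratio where the ratio was above 1. Its column medians are -0.96 and 0.97 at 6 h and -0.92 and 0.96 at 24 h (samples 1 and 2). All 43379 values are negative in each sample 1 column and 0 in each sample 2 column. The sign thus follows the dye orientation and gives no direction for a gene, and why it was given is not stated. From the mean and background signals, limma 3.58.1 in R 4.3.3 subtracted background (normexp, offset 50) and fitted loess within arrays, with control spots at weight 0 and outlier-flagged spots left out. Replicate spots were averaged per probe, and a gene was represented by its brightest probe. To be tested, a gene needed the scanner's well-above-background flag in PMCAO or sham RNA on both arrays of a time. Probes were named through RefSeq accessions (22951), symbols (6659) or older symbols (3109), and 8455 kept the file's name.

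Log2 ratios, turned to PMCAO over sham, were fitted with 1 coefficient per time (lmFit, eBayes, Benjamini-Hochberg at 0.05; 2 residual and 3.54 prior degrees of freedom). Sham at the 2 times was compared in a separate-channel model after Aquantile normalization (intraspot correlation -0.411). The fits were also run on simulated data, with outcomes not reported here. The simulation of the separate channels used a positive intraspot correlation, unlike the data. It therefore does not test the sham comparison under the data's own correlation. Fold changes are on the scale of signal plus offset, which understates changes of dim genes. Members, lists and tests were chosen with earlier results of these data known. All members are named, and of the other lists up to 6 called genes per list and time by smallest p (up to 2 for cell types), besides genes said to be chosen otherwise. Alternatives changed the offset, background correction, normalization, filter, probe rule, arrays fitted and replicate block. The same-numbered samples deviated together (r = 0.718 over 2 pairs), but the number is also the dye orientation, so it was not taken as pairing. The 4 arrays carry 1 slide number, so slide is no batch. The genes closest in pattern to B2m are not reported here.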

Additional observations from a re-analysis of the deposited data

Results flagged for a closer look

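None of the 9 tested members differed between times by the test of the difference itself. Among 135 tested genes, the members and the accompanying lists together, 8 did, where 1.61% of all genes did. These 8 were list genes, with limma adjusted p from 0.00271 to 0.0406. In the class II pathway the costimulatory ligand Cd86 was 1.11 higher on the log2 scale at 24 h than at 6 h. In the interferon gamma list Cxcl10 differed by 2.31. Of the monocyte and neutrophil markers, Chil3 differed by 3.87, S100a8 by 3.35, S100a9 by 3.22 and Retnlg by 2.58. The border macrophage marker F13a1 differed by 0.989, and Siglech, a marker of plasmacytoid dendritic cells that microglia also express, by -0.921.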

How the results depend on the processing

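At 24 h the calls of H2-K1, H2-D1 and H2-T23 held in 12 of 13 alternatives each, with ratios of 0.70 to 0.91, 0.74 to 1.26 and 0.58 to 0.96. They were lost under median centring in place of loess, which left the ratios at 0.70, 0.84 and 0.60 but called 13 genes higher and 0 lower of all tested (0 class I and 0 class II members), 0 and 0 at 6 h and 0 and 0 for the difference between times; the cause was not tested. That setting put the median difference between times over all genes at -0.10, against 0.01 with loess, and the class I and class II medians at 0.35 and -0.045. The class II count of 1 at 24 h, which is Cd74, fell to 0 with the scanner's processed signals, the deposited series table, an offset of 16, the filter on every channel and the 24 h arrays alone. All genes called higher and lower at 24 h were 956 and 461 with processed signals and 968 and 479 with the series table, and for the difference 14 and 3, and 15 and 3. The stricter filter gave 149 and 30 for the difference, and the offset of 16 gave 3 lower at 6 h. The 6 h arrays alone gave 935 and 345, with 2 members called per class.

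Leaving out each array in turn, genes called higher ranged from 76 to 935 at 6 h, 1245 to 2916 at 24 h, 169 to 1561 for the difference and 32 to 961 in sham, and genes called lower from 0 to 345, 616 to 2835, 15 to 1347 and 65 to 665. Class I members higher ranged from 0 to 2 at 6 h, 3 to 4 at 24 h, 0 to 3 for the difference and 0 to 1 in sham. Class II members higher ranged from 0 to 2 at 6 h and 0 to 1 at 24 h, and lower from 0 to 1 in sham. Where 1 array of a time is left out, the spread comes from the other time, and the lone array is assumed to vary like it. In that sense B2m (0.54) and H2-Ab1 (0.58) passed at 24 h without sample 2, and Cd74 was lost (0.33). The ratios of B2m on its own 24 h arrays were 0.54 and 0.11. Cd74 was also lost without either 6 h array. Signs changed only for values that had not passed. H2-T23 at 6 h was 0.042 with median centring. With arrays left out, B2m at 6 h ran from -0.040 to 0.12, H2-Aa at 24 h from -0.13 to 0.28, H2-Eb1 at 24 h from -0.031 to 0.0066 and Ttr at 24 h from -0.21 to 0.19. The difference between times then ran from -0.32 to 0.091 for H2-Aa and from -0.095 to 0.27 for H2-Ab1.

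With the sample number as a replicate block, which is also the dye orientation, genes called higher and lower were 1130 and 569 at 6 h, 3912 and 3684 at 24 h, 1685 and 1529 for the difference and 0 and 2 in sham. Members called higher were then 2 class I and 2 class II at 6 h, 5 and 2 at 24 h and 3 and 0 for the difference, and 0 members were called in sham in either direction. In sham, no filter gave 201 lower genes and 0 class II members, quantile normalization 0 class II members, and the mean of all probes 0 class I members.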
